A study of Mus musculus with 8 samples.

Results

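A set of 10 transcripts that mark Kupffer cells, the resident macrophages of the liver, was followed in libraries of sorted liver sinusoidal endothelial cells, as a measure of what else the sort held. The members were *Adgre1*, *Clec4f*, *Vsig4*, *Timd4*, *Cd5l*, *Marco*, *Lyz2*, *Csf1r*, *C1qa* and *Spic*. All 10 were found by gene symbol among the 23930 RefSeq targets of the assay. They were chosen as known macrophage genes, at a time when earlier results of these data were known. The cells came from livers of wild type female Balb/c mice and had been gated in a cell sorter on high STAB2 and high CD146, with dim CD45. The design text calls the mice young, and no age is given. Mice of the control group (4 libraries) had received citrate buffer (0.05 M) and those of the other group (4 libraries) iron citrate (150 µg), each into a vein, and 5 h passed before analysis. The labels name 1 mouse per library, and p-values cover the spread between these samples. The design text speaks of 5 samples against 5, and the others were not analysed here.

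Kupffer cells sit in the lumen of the sinusoid, attached to the endothelium, and take up old red cells, haemoglobin and particles from the blood. They break haem down with haem oxygenase and return the iron to plasma through ferroportin. Among their products, CLEC4F, VSIG4 and TIMD4 mark the resident population of mouse liver, while lysozyme and the CSF1 receptor are shared with monocytes and other myeloid cells. SPIC is a transcription factor of the ETS family, close to PU.1, that haem induces in macrophages and that iron-recycling macrophages of the spleen need. Because Kupffer cells touch sinusoidal endothelium, their RNA can travel with it through a sort as whole cells, doublets or fragments.

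Library depth was 7969520 to 11314659 counts on targets. Levels are given as CPM, each library's counts rescaled to a common total with TMM factors, which correct for differences in RNA composition. Each gene was read through a single amplicon, so CPM of different genes are set by the amplicons as well as by transcript number. The groups were tested within genes. Sums, ratios, shares and rankings over several genes, given below, depend on the amplicons too. Citrate buffer replicate 1 stood apart from the others (median correlation with its own group 0.84, against 0.96 to 0.98). Its share of counts on olfactory, vomeronasal type I and bitter taste receptor and keratin-associated protein genes, families with intronless coding sequences and tissue-restricted expression, was 2.42%, against 0.30% to 0.98% elsewhere. The gene fits, the member medians and the correlations were therefore also computed without it. Median fold changes of the other gene lists were computed from all libraries only. The markers of the sorted cells were present: the 16 sinusoidal endothelial genes, led by *Clec4g* and *Dnase1l3*, summed to 21418 CPM in citrate buffer replicate 1 and to 32233 to 40782 CPM in the other 7 libraries, and no member of that list was called between the groups. *Stab2* averaged 1086 ± 154 CPM in the buffer group and 977 ± 131 CPM in the iron group (SD over 4 libraries each). *Mcam*, which encodes CD146, averaged 253 ± 34.8 and 179 ± 11.3 CPM, with an edgeR adjusted p of 0.239 (below 0.05 in 7 of 19 fits, among them 0.0135 without citrate buffer replicate 1).

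The 250 bases upstream of the annotated start were available for 7 of the 10 members (RefSeq, GRCm38.p6, the build of that table). They are shown for 3 members whose levels went up and down together across the libraries and for *Spic*. The motifs GAGGAA, a core bound by PU.1-type ETS factors, and TGACNNNGC, the core of the antioxidant response element, were searched on both strands, and matches are in capitals. No window held both motifs. GAGGAA was in 3 of the 7 windows and in 23.3% of 32851 such windows of all genes. TGACNNNGC was in 1 of the 7 and in 10.2% of all windows. A match is only a match of letters. The *Clec4f* window, chr6:83656117-83656366 on the minus strand, held 1 match to TGACNNNGC on its reverse strand. The *Vsig4* window, chrX:96293439-96293688 on the minus strand, held 2 matches to GAGGAA. The *Cd5l* window, chr3:87357631-87357880 on the plus strand, held 1, on the reverse strand. The *Spic* window, chr10:88683024-88683273 on the minus strand, held neither set of letters.
Clec4f: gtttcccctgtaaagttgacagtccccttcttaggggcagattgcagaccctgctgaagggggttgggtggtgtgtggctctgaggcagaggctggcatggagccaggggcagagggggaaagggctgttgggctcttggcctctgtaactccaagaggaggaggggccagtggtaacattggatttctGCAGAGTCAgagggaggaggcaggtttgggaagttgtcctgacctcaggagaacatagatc
Vsig4: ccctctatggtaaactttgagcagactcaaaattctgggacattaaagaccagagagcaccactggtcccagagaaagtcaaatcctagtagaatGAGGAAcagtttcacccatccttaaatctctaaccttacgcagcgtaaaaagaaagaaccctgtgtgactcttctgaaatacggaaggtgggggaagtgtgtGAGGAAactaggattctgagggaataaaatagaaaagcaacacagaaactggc
Cd5l: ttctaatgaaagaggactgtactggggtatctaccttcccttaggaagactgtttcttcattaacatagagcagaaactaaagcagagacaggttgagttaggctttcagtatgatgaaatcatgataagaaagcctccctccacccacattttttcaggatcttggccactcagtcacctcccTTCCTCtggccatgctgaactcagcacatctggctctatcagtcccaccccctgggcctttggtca
Spic: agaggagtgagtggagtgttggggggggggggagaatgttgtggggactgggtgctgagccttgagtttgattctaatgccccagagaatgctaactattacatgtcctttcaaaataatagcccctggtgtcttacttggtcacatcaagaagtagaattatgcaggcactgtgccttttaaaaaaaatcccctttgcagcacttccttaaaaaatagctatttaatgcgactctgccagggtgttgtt

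Of the 10 Kupffer cell transcripts 9 were detected in every library, at levels that differed more between single libraries than between the group means. *Clec4f* encodes a galactose-binding lectin found on Kupffer cells of mice. It stood at 5.90, 37.4, 59.3 and 46.1 CPM in citrate buffer replicates 1 to 4 and at 51.7, 60.02, 94.1 and 25.0 CPM in iron citrate replicates 1 to 4. The highest library had 15.9 times the level of the lowest, and 3.77 times without citrate buffer replicate 1. *Vsig4* encodes the complement receptor CRIg, with which Kupffer cells clear opsonised particles from blood. Its values were 23.0, 93.2, 114 and 106 CPM after buffer and 94.6, 181, 202 and 79.0 CPM after iron. For both genes citrate buffer replicate 1 was the lowest of all libraries, iron citrate replicate 3 was the highest and iron citrate replicate 4 was the lowest of its group, and the groups overlapped.

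*Cd5l* encodes a secreted scavenger receptor protein of tissue macrophages. It stood at 5.62, 30.3, 43.1 and 54.6 CPM after buffer and at 33.7, 52.9, 88.1 and 19.8 CPM after iron. *Timd4*, the phosphatidylserine receptor of long-lived resident macrophages, was lower throughout, at 0.76, 6.10, 3.92 and 6.63 CPM after buffer and 5.18, 6.34, 8.82 and 4.04 CPM after iron. *Adgre1*, which encodes the F4/80 antigen, was at 2.67, 4.01, 5.25 and 7.02 CPM after buffer and 5.38, 6.68, 8.19 and 3.67 CPM after iron. The order was again that of *Clec4f* at the ends: citrate buffer replicate 1 was lowest and iron citrate replicate 3 highest for each of these 3 genes. *Marco*, a scavenger receptor for bacteria and particles, was near the limit of the assay, with 7 to 34 counts per library. Its values were 0.95, 1.00, 1.96 and 0.93 CPM after buffer and 1.08, 3.92, 1.68 and 1.01 CPM after iron, and the highest was iron citrate replicate 2 (exact Poisson 95% interval 2.71 to 5.47 CPM, counting error only).

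**Figure D1:**
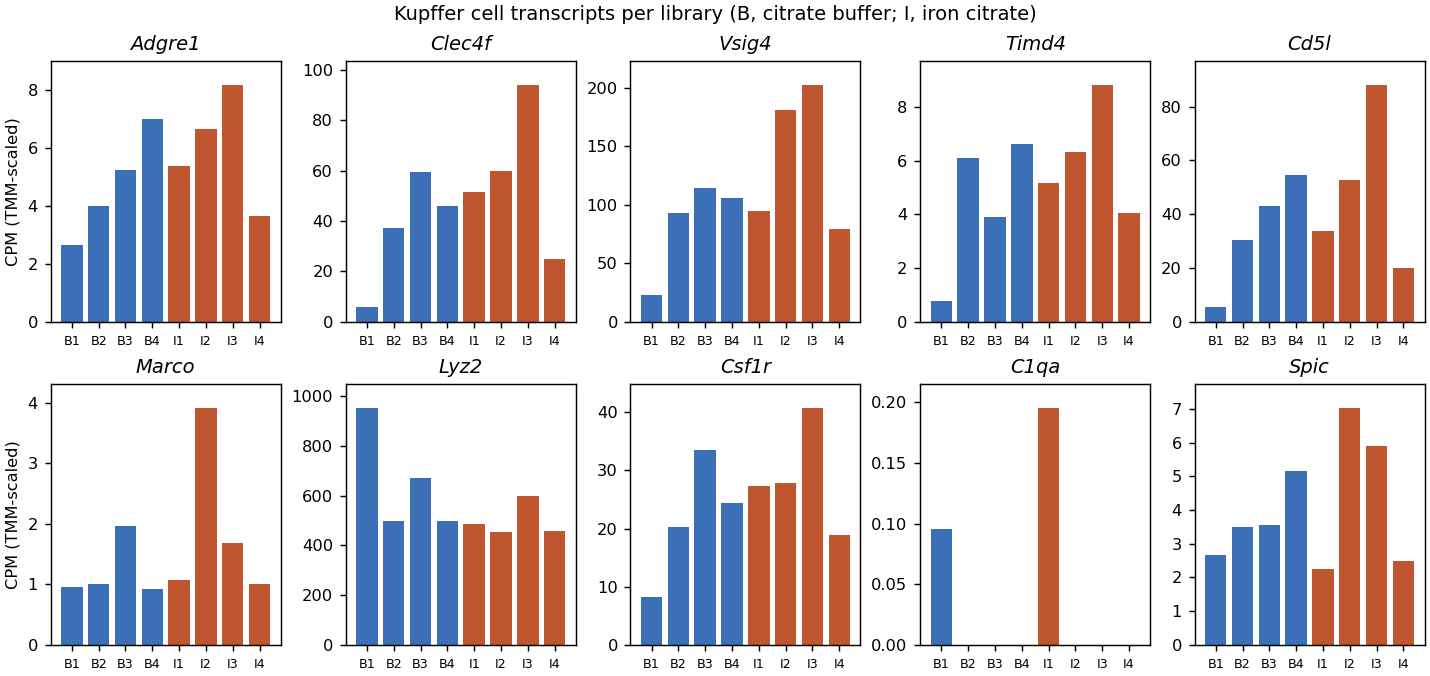
CPM scaled with TMM factors (y axis, starting at 0, with its own range for each gene) of the 10 members in citrate buffer replicates B1 to B4 and iron citrate replicates I1 to I4, 1 bar per library. *Clec4f*, *Vsig4*, *Timd4*, *Cd5l*, *Adgre1* and *Csf1r* are lowest in B1 and highest in I3, while *Lyz2* is highest in B1 and *C1qa* is at 0 in 6 of the 8 libraries.

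The CSF1 receptor, *Csf1r*, through which macrophages receive their survival signal, followed the resident members. It stood at 8.29, 20.3, 33.6 and 24.4 CPM after buffer and at 27.3, 27.9, 40.8 and 18.9 CPM after iron. *Lyz2*, the lysozyme of macrophages, monocytes and neutrophils, did not follow them in citrate buffer replicate 1. Its values were 952, 498, 669 and 499.8 CPM after buffer and 487, 452, 600.1 and 456 CPM after iron. Reads of its close copy *Lyz1* may be counted with it. *Lyz2* was highest in the library in which the resident members were lowest. The ratio of *Lyz2* to the summed CPM of *Adgre1*, *Clec4f*, *Vsig4*, *Timd4*, *Cd5l* and *Marco*, the 6 surface and secreted proteins of resident macrophages, was 24.5 in citrate buffer replicate 1 and 1.45 to 3.44 in the other 7 libraries.

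How closely the members moved together was measured against *Clec4f* on log2 CPM over the 7 libraries without citrate buffer replicate 1, for the 8 other members that passed the low-count filter. These libraries share their depth range and the other RNA of the sort. Libraries of both treatments were permuted together, and group means were not removed. How many other targets had as high an r with *Clec4f* was not counted. *Csf1r* was closest, with Pearson's r = 0.95 (exact permutation p = 0.00119, adjusted over the 8 relations 0.00952) and Spearman's rho = 0.96 (exact permutation p = 0.00278, adjusted 0.0111). *Vsig4* had r = 0.86 (exact permutation p = 0.00754, adjusted 0.0206) and rho = 0.96 (exact permutation p = 0.00278, adjusted 0.0111). *Cd5l* had r = 0.92 (exact permutation p = 0.00774, adjusted 0.0206) and rho = 0.79 (exact permutation p = 0.0480, adjusted 0.106). *Adgre1* had r = 0.86 (exact permutation p = 0.0121, adjusted 0.0242) and rho = 0.75 (exact permutation p = 0.0663, adjusted 0.106).

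The other 4 did not pass: r was 0.61 for *Timd4* (adjusted exact permutation p = 0.191), 0.53 for *Marco* (0.231), 0.58 for *Lyz2* (0.217) and 0.61 for *Spic* (0.191), with rho of 0.43, 0.75, 0.29 and 0.68. Without the 2 libraries farthest from the median of *Clec4f*, iron citrate replicates 3 and 4, r over the 5 left was 0.93 for *Csf1r*, 0.67 for *Vsig4*, 0.56 for *Adgre1* and 0.54 for *Cd5l*, so that all but that of *Csf1r* rested in part on those 2 libraries. For *Timd4* it was -0.47. Over all 8 libraries r was 0.97 for *Vsig4*, 0.98 for *Cd5l* and 0.93 for *Timd4*, and for *Lyz2* it turned to -0.61.

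*C1qa* was an exception among the members. C1q, the recognition molecule of the classical complement pathway, is built from A, B and C chains encoded by *C1qa*, *C1qb* and *C1qc*, and macrophages make all of them. *C1qa* had 1 count in citrate buffer replicate 1, 2 counts in iron citrate replicate 1 and none in the other 6 libraries, where a count of 0 allows up to 3 counts, or 0.251 to 0.398 CPM. It did not pass the low-count filter. *C1qb* stood at 4.38, 28.1, 48.4 and 40.5 CPM after buffer and at 41.2, 63.1, 82.5 and 35.1 CPM after iron, lowest in citrate buffer replicate 1 and highest in iron citrate replicate 3 like the resident members. *C1qc* stayed between 0.09 and 0.95 CPM in all 8 libraries. In these libraries the *C1qa* and *C1qc* targets thus gave no usable reading, while *C1qb* did.

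As a measure of purity, the 6 surface and secreted resident macrophage members were summed. They held 408 counts in citrate buffer replicate 1, which is 0.00446% of its counts (exact Clopper-Pearson 95% interval 0.00404% to 0.00491%, counting error only). *Vsig4* made up 47.8% to 59.6% of the sum in all 8 libraries. In citrate buffer replicates 2 to 4 the sums were 172, 228 and 221 CPM, and in iron citrate replicates 1 to 4 they were 192, 311, 403 and 133 CPM. Set against 1000 CPM of the sinusoidal endothelial list, the resident members came to 1.81, 5.34, 6.15 and 5.42 CPM after buffer and to 5.72, 8.60, 12.3 and 3.88 CPM after iron. Citrate buffer replicates 2 to 4 lay close together (5.64 ± 0.45, SD, n = 3). The 4 iron citrate libraries spread over a 3.16-fold range, with the highest and the lowest value of the 7 libraries both among them. With citrate buffer replicate 1 included, the buffer values also spread widely, from 1.81 to 6.15. A difference in spread between the groups was not tested. In sorted bulk RNA, fewer Kupffer cells and less RNA per cell cannot be told apart, and with no library of pure Kupffer cells these ratios give no share of cells.

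The low resident sum of citrate buffer replicate 1 came with high levels of *Ptprc* and of the T and NK cell and neutrophil lists. Its resident sum was 0.18 times the median of the other 7 libraries and its sinusoidal endothelial sum 0.63 times. By contrast, *Ptprc*, which encodes the CD45 that the sort kept at a dim level, was at 2.15 times the median (382 CPM, against 135 to 208 CPM). The sum of 9 T and NK cell genes, led by *Gzma* and *Cd3g*, was at 2.27 times (2614 CPM, against 869 to 1356 CPM). Of the 9, 6 were highest in that library and 1 was lowest. *Gzma*, the granule protease of cytotoxic cells, reached 1261 CPM there by itself, against 224 to 395 CPM elsewhere. The 10 neutrophil genes, led by *S100a9* and *Csf3r*, summed to 2.29 times the median (406 CPM, against 112 to 255 CPM), and 6 of the 10 were highest there. The share of all targets that were highest in that library, which stood apart from the others, was not counted.

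Of the neutrophil genes *S100a8* had 116 CPM in citrate buffer replicate 1 and 21.2 to 45.5 CPM elsewhere, whereas *Ly6g* had 0.49 to 2.25 CPM and *Mpo* at most 0.20 CPM over all 8 libraries. B cell genes (*Cd79b*, *Pax5*) and stellate cell genes (*Dcn*, *Ecm1*) were low with the resident members in that library, at 0.43 and 0.41 times the median. Dendritic cell genes were at 0.72 times the median there and at 0.74 to 0.81 times in the other buffer libraries. The part of these other cells in the *Lyz2* value was not tested.

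**Figure D2:**
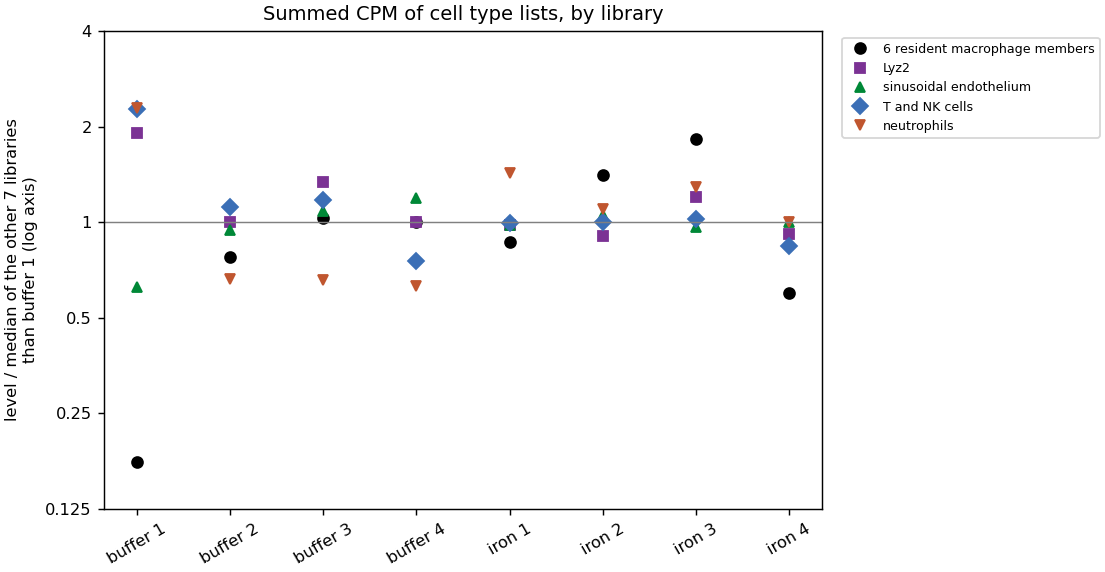
Level in each library relative to the median of the 7 libraries other than citrate buffer replicate 1 (y axis, log scale; the grey line marks 1), for the summed CPM of the 6 resident macrophage members, *Lyz2*, and the lists of sinusoidal endothelial, T and NK cell and neutrophil genes. In citrate buffer replicate 1 the resident members are at 0.18 and the endothelial list at 0.63, while *Lyz2*, T and NK cells and neutrophils are at 1.91 to 2.29.

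Whether iron citrate changed the Kupffer cell transcripts was asked next. None of the 9 tested members was called in the edgeR comparison of iron citrate with citrate buffer (adjusted p under 0.05), in which 0.555% of the 14601 tested targets were called in either direction, 0.527% higher and 0.0274% lower after iron. At an unadjusted p under 0.05, 14.6% of all targets passed, and none of the 9 members did. DESeq2 and limma-voom called none of them either. In all 9 the values of the groups overlapped, and 8.64% of the tested targets had groups that did not. With only 9 members, none beside shares of 14.6% and 8.64% does not set them apart from other targets. The log2 fold change was above 0 for 8 members and below 0 for 1, *Lyz2*, with a median of 0.49 beside -0.01 over all tested targets.

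*Clec4f* averaged 37.2 ± 22.7 CPM after buffer and 57.7 ± 28.5 CPM after iron (SD over 4 libraries each), giving a log2 fold change of 0.63 (95% interval -0.66 to 1.92, edgeR adjusted p = 0.56). *Vsig4* averaged 84.0 ± 41.6 and 139 ± 61.5 CPM, a log2 fold change of 0.73 (-0.31 to 1.77, edgeR adjusted p = 0.398). Both intervals include 0 and reach well above it. *Lyz2* had the narrowest interval, with 655 ± 214 and 499 ± 69.3 CPM and a log2 fold change of -0.39 (-0.89 to 0.10, edgeR adjusted p = 0.356). For *Cd5l*, *Timd4*, *Adgre1*, *Marco* and *Csf1r* the log2 fold changes lay between 0.34 and 0.64, with edgeR adjusted p-values of 0.503 to 0.659.

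Leaving out citrate buffer replicate 1 moved the median log2 fold change of the 9 members from 0.49 to 0.15, beside -0.036 over all targets. *Clec4f* then stood at 47.6 ± 11.03 CPM after buffer (n = 3), with a log2 fold change of 0.27 (edgeR adjusted p = 0.767), *Vsig4* at 0.41 (0.573) and *Lyz2* at -0.16 (0.66). With the share of counts on silent gene families as a covariate the median was -0.11, and 7 of the 9 members were below 0.

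**Figure D3:**
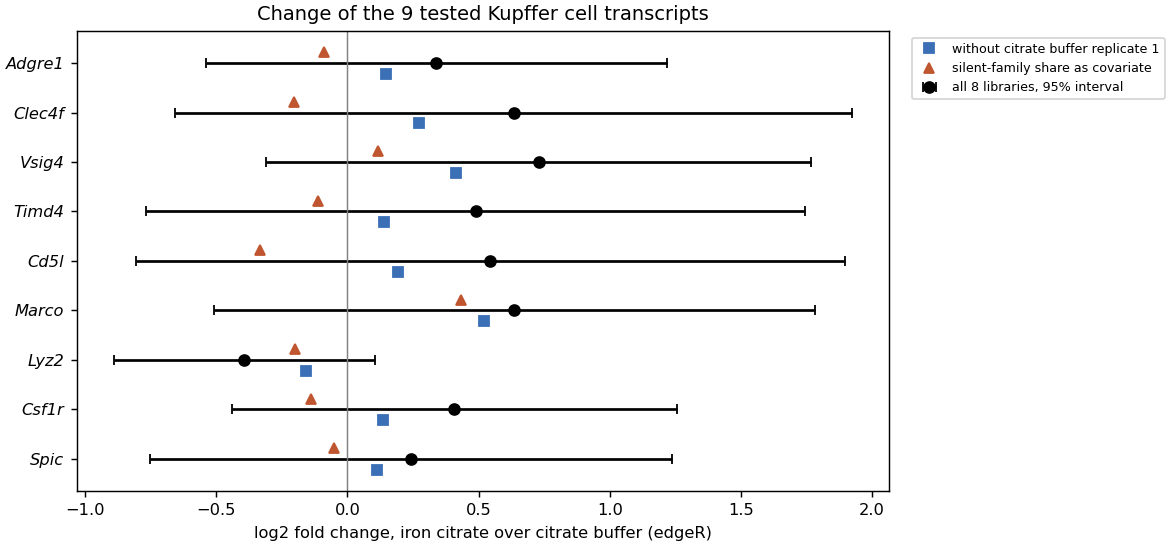
Log2 fold change of iron citrate over citrate buffer (x axis, edgeR) for the 9 members that passed the low-count filter. Black points are all 8 libraries with 95% intervals, each of which includes 0. Blue squares leave out citrate buffer replicate 1 and orange triangles add the silent-family share as a covariate, and all of these lie nearer to 0 than the black points.

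*Spic* was examined as the member that haem is known to induce. It stood at 2.67, 3.51, 3.56 and 5.17 CPM after buffer and at 2.25, 7.03, 5.88 and 2.48 CPM after iron, on 23 to 61 counts per library. Iron citrate replicates 2 and 3 had the highest values of all libraries and replicates 1 and 4 the lowest. The log2 fold change was 0.24 (95% interval -0.75 to 1.24, edgeR adjusted p = 0.793). Per 100 CPM of the resident members, *Spic* was at 6.86 CPM in citrate buffer replicate 1, at 1.56 to 2.34 CPM in the other buffer libraries and at 1.17 to 2.26 CPM after iron.

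Other genes of haem and iron handling in macrophages did rise in the same libraries. Of 12 listed genes 4 rose and 8 did not pass the test, with none lower, and the median log2 fold change was 0.60. Over all tested targets 0.527% were called higher, and the median was -0.01. The list was chosen with earlier results of these data known. Ferroportin, *Slc40a1*, rose 6.39-fold (log2 fold change 2.68, SE 0.20, edgeR adjusted p = 0.000213), and haem oxygenase, *Hmox1*, rose 36.5-fold (5.19, SE 0.26, edgeR adjusted p = 1.19e-05). The biliverdin reductase *Blvrb* averaged 77.1 ± 21.7 CPM in the buffer group and 508 ± 49.6 CPM in the iron group, 6.59-fold higher (edgeR adjusted p = 0.000245). *Slc48a1*, which carries haem out of the lysosome, was 4.96-fold higher (edgeR adjusted p = 0.00676). *Treml4*, a receptor of splenic red pulp macrophages and monocytes, was at 12.1 ± 2.49 and 15.9 ± 4.15 CPM (edgeR adjusted p = 0.425), and *Bach1*, the haem-sensing repressor, at 59.1 ± 11.5 and 108 ± 10.1 CPM (edgeR adjusted p = 0.061). The groups did not overlap for *Bach1*, and it was called in 8 of 19 fits, among them those without citrate buffer replicate 1 (edgeR adjusted p = 0.00438) and with DESeq2 (adjusted p = 0.00013).

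Within the iron citrate group ferroportin varied less than the Kupffer cell transcripts. *Slc40a1* stood at 1220, 1299, 1434 and 1472 CPM in iron citrate replicates 1 to 4, a 1.21-fold range, over which the resident sum varied 3.04-fold. Over iron citrate replicates 1 to 3 the resident sum went up with it, at 192, 311 and 403 CPM. Only iron citrate replicate 4 broke that order, with the lowest resident sum of the group, 133 CPM, and the highest *Slc40a1* value. Its resident sum was below those of citrate buffer replicates 2 to 4, in which *Slc40a1* was at 204 to 283 CPM. The part of Kupffer cells in the rise of *Slc40a1* was not tested. *Hmox1* likewise varied 1.25-fold, from 2920 to 3660 CPM, within the iron citrate group.

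**Figure D4:**
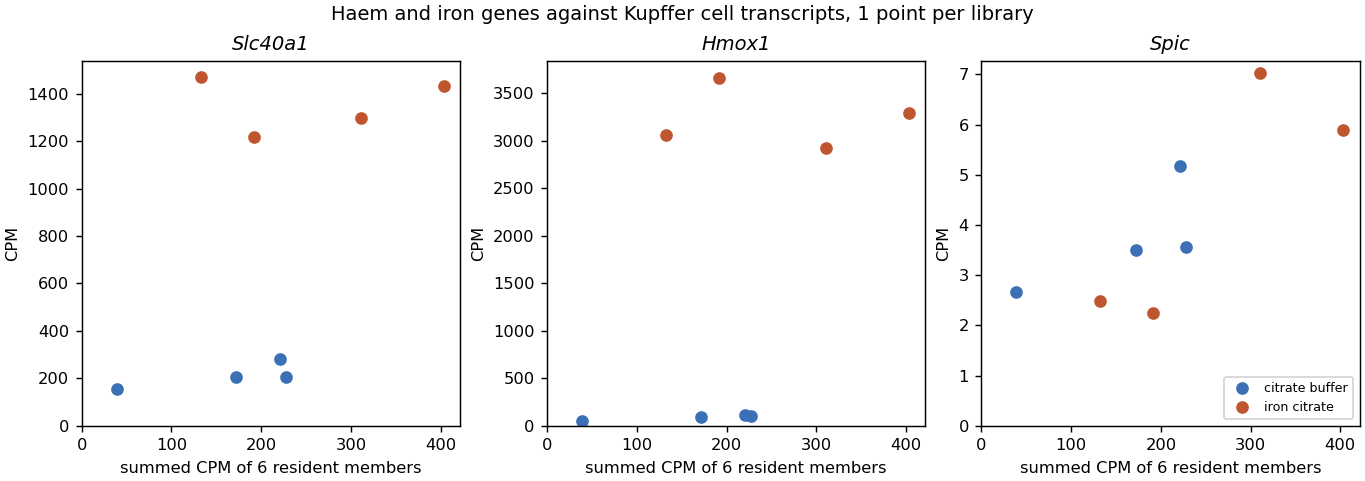
CPM of *Slc40a1*, *Hmox1* and *Spic* (y axes, starting at 0) against the summed CPM of the 6 resident macrophage members (x axis), 1 point per library, blue for citrate buffer and orange for iron citrate. *Slc40a1* and *Hmox1* are high in all 4 iron citrate libraries, at resident sums of 133 to 403 CPM, while the groups overlap for *Spic*.

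A pair of wider macrophage lists were read beside the members. Of 16 other Kupffer cell genes 15 were tested, 1 rose, none fell and 14 did not pass. Of all tested targets 0.527% were called higher and 0.0274% lower. The median log2 fold change of the list was 0.33, beside -0.01 over all tested targets, with 10 genes above 0 and 5 below. The gene that rose was *Slc40a1*, which sinusoidal endothelium also expresses. The most abundant other gene was *Id3*, a regulator that endothelium shares, at 946 ± 206 and 990 ± 116 CPM (edgeR adjusted p = 0.872). Of the 16, 10 were lowest in citrate buffer replicate 1, among them the haemoglobin receptor *Cd163*, at 5.90 CPM there, 19.9 to 23.5 CPM in the other buffer libraries and 12.7 to 49.9 CPM after iron. In that library 12 of the 16 sinusoidal endothelial genes were lowest too, and the share of all targets lowest there was not counted.

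Of 20 general macrophage genes 18 were tested and none was called, with a median of -0.08 beside -0.01 over all tested targets. Without citrate buffer replicate 1 the receptor for dying cells *Mertk* was called (edgeR adjusted p = 0.0274, against 0.13 with all 8 libraries). Its means over all 8 were 83.4 ± 16.7 CPM (buffer) and 159 ± 39.5 CPM (iron). The sum of the 20 general macrophage genes was nearly level, at 3728 to 4158 CPM after buffer and 3600 to 3835 CPM after iron. It was led by *Fcer1g* and *Lgmn*, which were less level. In citrate buffer replicate 1 they were at 1.21 and 0.63 times the median of the other 7 libraries. In this list 10 of the 20 were highest in citrate buffer replicate 1 and 2 were lowest there, and the shares over all targets were not counted. *Tyrobp*, an adaptor of myeloid and NK cells, had 356 CPM in that library and 186 to 271 CPM elsewhere.

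Among 10 genes of the CSF1 receptor axis none was called. The ligands *Csf1* and *Il34* averaged 393 ± 88.2 and 3.59 ± 1.90 CPM after buffer and 481 ± 197 and 2.15 ± 0.98 CPM after iron (edgeR adjusted p = 0.57 and 0.382). The factor PU.1, *Spi1*, which drives *Csf1r*, was at 51.5 ± 6.46 and 63.7 ± 9.07 CPM (edgeR adjusted p = 0.333) and *Irf8* at 131 ± 52.6 and 158 ± 43.2 CPM (0.614). *Clec9a*, a lectin of dendritic cells, rose 1.69-fold (edgeR adjusted p = 0.0221). It was the only called gene of 10 dendritic cell genes, where 0.555% of all tested targets were called. That call was kept in 11 of 19 fits, the main fit included, with adjusted p-values up to 0.13. None was called among the neutrophil, T and NK, B, hepatocyte, stellate or erythroid genes, led by *S100a9*, *Gzma*, *Cd79b*, *Alb*, *Dcn* and *Epor*. Without citrate buffer replicate 1, however, a fit that called 221 of 14701 targets higher, 4 of the 8 tested neutrophil genes were called higher after iron. These were *S100a8* (log2 fold change 0.78, edgeR adjusted p = 0.0182, against -0.22 and 0.841 with all 8 libraries), *S100a9* (0.82, 0.0269), *Retnlg* (1.23, 0.00846) and *Csf3r*, the receptor for the neutrophil growth factor (1.19, 0.00425). Few of the 19 fits called them: 2 for *S100a8*, 2 for *S100a9*, 3 for *Retnlg* and 4 for *Csf3r*. With the silent-family covariate their edgeR adjusted p-values were 0.441, 0.484, 0.234 and 0.0115. The summed neutrophil genes were at 112 to 118 CPM in citrate buffer replicates 2 to 4 and at 178 to 255 CPM after iron, and their part in the values of *Lyz2*, which neutrophils share, was not tested.

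The targets whose pattern was most like that of the members were found by Pearson's r with the mean log2 CPM of the 7 members with a mean of at least 5 CPM, over the 7 libraries without citrate buffer replicate 1 and among 11669 targets. The closest was *Acp5*, the acid phosphatase of osteoclasts and tissue macrophages, with r = 0.99 (0.96 over all 8 libraries). It stood at 32.0, 48.8, 61.6 and 63.3 CPM after buffer and at 57.8, 63.0, 91.5 and 41.9 CPM after iron. Next came the non-coding target XR_001778181.1 (0.98, and 0.75 over 8), *Selenok* (0.97 and 0.99), *Pa2g4* (0.97 and 0.56) and *Nudcd1* (0.97 and -0.43). These were chosen from many targets over 7 points. Once citrate buffer replicate 1 was added, the likeness was lower for all of them but *Selenok*. From the Kupffer list, *Cd163* ranked 18th of all targets (r = 0.94), *Fcna* 23rd (0.93) and *C1qb* 70th (0.88).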

How the data were processed

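The authors deposited whole-number read counts per RefSeq target, 1 file per library, from Ion AmpliSeq mouse transcriptome libraries, per the labels. HTSeq 0.6.0 and DESeq2 1.18.1 are named in the submitters' processing notes. Aligner and build: not given in the sources used here. HTSeq's summary lines (2.15% to 4.60% of reads) were left out. Symbols were found for all but 1368 of 23930 targets. The groups were compared in edgeR 4.0.16 (R 4.3.3), after filterByExpr (14601 targets) and TMM scaling, by the quasi-likelihood F-test with robust dispersion and Benjamini-Hochberg adjustment. Intervals of fold changes came from the F statistic. Over 14484 simulated targets of this comparison edgeR called 37 of 100 changed 2-fold, 69 of 100 changed 4-fold and 1 unchanged. DESeq2 called 50, 85 and 37 of these, so its calls held more unchanged targets. The members, the lists and citrate buffer replicate 1 as a library apart were chosen with earlier results of these data known. Named were the members, called genes of each list, the 2 most abundant genes of each list, *Stab2*, *Mcam* and *Ptprc*, and the 5 targets most like the members. The monocyte list is not reported here. *S100a8*, *Retnlg*, *Ly6g*, *Mpo*, *Tyrobp*, *Cd163*, *Fcna*, *C1qb*, *C1qc*, *Treml4*, *Bach1*, *Il34*, *Spi1* and *Mertk* were added once their values were known. Within each group every pair of libraries differed by more than sampling noise (chi-square per degree of freedom at least 8.8). Alternatives were other scaling factors, DESeq2 1.42.0, limma-voom (limma 3.58.1), other low-count filters, a replicate block, a silent-family covariate and left-out libraries. Exact permutation tests used SciPy 1.17.1.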

Additional observations from a re-analysis of the deposited data

Results flagged for a closer look

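Among 22 groups of 4 libraries checked for a library far from the others (9 members and 2 summed measures in each treatment group), 1 stood out, where chance gives about 1 in 20. *Marco* in citrate buffer replicate 3 was at 1.96 CPM, on 22 counts, while the other buffer libraries had 0.93 to 1.00 CPM. The exact Poisson 95% interval of that value, 1.23 to 2.97 CPM, overlaps that of citrate buffer replicate 2, 0.52 to 1.75 CPM.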

How the results depend on the processing

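No member was called in any of the 18 alternatives to the main fit in which it was tested, with adjusted p-values of 0.188 or more. Against 77 genes called higher and 4 lower over all targets, DESeq2 called 295 and 70, limma-voom 247 and 43, the covariate fit 233 and 96, and the fit without citrate buffer replicates 1 and 2 200 and 81. With 1 library left out the counts ran from 45 to 221 higher and from 0 to 38 lower. Among the general macrophage genes, where none was called, *Mertk*, a receptor for dying cells, was called with DESeq2, limma-voom and the covariate (1 gene each) and the left-out fits gave 0 to 1 (log2 fold change 0.93, edgeR adjusted p = 0.13 in all 8 libraries, 0.0274 without citrate buffer replicate 1). The sign turned, without a call, for *Spic* with limma-voom (-0.074), the covariate (-0.051) and without iron citrate replicate 2 (-0.071, the lowest with 1 library left out; the highest was 0.46). It also turned without citrate buffer replicates 1 and 2 for *Adgre1* (-0.034), *Cd5l* (-0.0072) and *Csf1r* (-0.024), and with the covariate for *Csf1r* (-0.14), *Cd5l* (-0.33), *Adgre1* (-0.089), *Clec4f* (-0.20) and *Timd4* (-0.11). The cause was not tested. Upper-quartile factors and library totals shifted the median over all targets to -0.12 and -0.11, with member medians of 0.39 and 0.42.

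Same-numbered libraries share only a number: their deviations correlated at -0.00 to 0.61 for replicates 1 to 3 and at -0.32 for replicate 4. With the replicate block 43 genes were called higher and 0 lower, and no member. *Marco*, *Spic* and *Timd4*, at 7 to 84 counts per library, are limited by depth, and *C1qa* cannot be read.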
